A study of Mus musculus with 6 samples.

Results

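The MAPK feedback phosphatases and Sprouty proteins are the inhibitors that dampen signaling through the mitogen-activated protein (MAP) kinases. The 10 genes examined were Dusp1, Dusp4, Dusp5, Dusp6, Dusp10, Spry1, Spry2, Spry4, Spred1 and Spred2, taken by gene symbol from the 19730 rows of the RNA-Seq table, where each had 1 row. The RNA came from mesangial cells in primary culture from mice, at passage 3 to 6. These contractile cells hold together the capillary loops of the glomerulus, the filtering unit of the kidney. All cultures were kept in medium with high glucose (25.5 mM) and 20% serum, so the Control cells shared both. For the 3 treated libraries, cells received transforming growth factor beta 1 (TGF-β1), a secreted protein that drives scarring, at 10 ng/ml for 72 h, and the design asks which genes change with that treatment. The sources do not say whether the libraries of a group came from separate cultures, so p-values measure the spread between these libraries, which may be technical.

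MAP kinases such as ERK, JNK and p38 are switched on by phosphorylation of a threonine and a tyrosine in their activation loop. Dual-specificity phosphatases of the DUSP family remove both phosphates. Sprouty and Spred proteins act further upstream, where they limit the passage of the signal from receptor tyrosine kinases through RAS to RAF. Many of these inhibitors are themselves transcribed when ERK is active, which makes them negative feedback genes, and in the kidney Sprouty1 is known for restraining GDNF and RET signaling during development. TGF-β1 signals mainly through SMAD proteins but can also engage MAP kinases.

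The active site of the 5 phosphatases is shown first because it is what these enzymes share. It holds a catalytic cysteine, which attacks the phosphate, and an arginine, which binds it, and the capitals mark the codons of these residues in the GENCODE M1 coding sequences (mm9). The stretches lie at chr17:26643537-26643560 (minus strand) for Dusp1, chr8:35881487-35881510 (plus) for Dusp4, chr19:53615441-53615464 (plus) for Dusp5, chr10:98728661-98728684 (plus) for Dusp6 and chr1:185898172-185898195 (plus) for Dusp10, each inside a coding exon.
Dusp1: catTGCcaggccggcatctccCGG
Dusp4: cacTGCcaggccggcatctccCGA
Dusp5: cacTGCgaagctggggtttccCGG
Dusp6: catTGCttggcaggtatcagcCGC
Dusp10: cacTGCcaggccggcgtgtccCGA
Over these 24 bases Dusp4 differed from both Dusp1 and Dusp10 at 2 positions, and Dusp5 and Dusp6 differed from each other at 11. All 5 stretches had the same cysteine codon.

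For the Sproutys, the stretch shown encodes the conserved tyrosine near the amino end whose phosphorylation is known to control their activity, and it is shown because Spry1 and Spry2 moved in opposite directions. It lies in the single coding exon of each gene, at chr3:37541682-37541702 (plus strand) for Spry1 and chr14:106292791-106292811 (minus strand) for Spry2, with the tyrosine codon in capitals.
Spry1: aatgaaTACacagagggacct
Spry2: aatgagTACacagagggccct
The 2 genes differed at 2 of these 21 bases.

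Expression was given as FPKM, fragments scaled to transcript length and library depth, so levels can be set side by side between genes. Depth, recovered from the steps between the lowest FPKM values with an assumed fragment length of 200 nt, was 10115000 to 11073000 fragments per library. In the 4 genes with a single annotated transcript (Dusp4, Dusp5, Spry2 and Spry4), all 24 values came out within 0.145 of a whole number of fragments, and fragments are quoted for these genes. The depth was fitted to bring low values of single-transcript genes close to whole numbers, and some of these 24 values were among them. This closeness is therefore not an independent check of the depth. The treatment was evident in Ctgf, a known TGF-β1 target, which rose from 48.2 ± 19.4 to 1154 ± 152 FPKM (SD, n = 3, limma adjusted p 9.54e-05). Of the 7 mesangial and pericyte markers in the table, Acta2 rose from 997 ± 89.7 to 3887 ± 348 FPKM and Pdgfrb fell from 37.5 ± 4.82 to 29.2 ± 0.751 FPKM (limma adjusted p 8.64e-05 and 0.0396). Gata3 was at 0.756 to 2.42 FPKM, and Cspg4 went from at most 0.115 to at least 0.918 FPKM, and Itga8, Des and Thy1 did not exceed 0.550 FPKM in any library. Other markers moved with the treatment. The summed level of the 2 tubular epithelial markers was 114 to 146 FPKM in Control and 5.87 to 6.92 FPKM with TGF-β1, nearly all of it Cdh16. That of the 4 macrophage and leukocyte markers was 84.3 to 112 against 7.25 to 8.64 FPKM, mostly Cd14. In that list Csf1r fell from 6.27 ± 0.979 to 0.411 ± 0.156 FPKM (limma adjusted p 8.56e-05), while Ptprc and Lyz2 stayed at or under 0.0811 FPKM. Podocyte markers (5 in the table) summed to 19.7 to 24.9 against 12.6 to 13.7 FPKM, and the 4 endothelial markers stayed under 1 FPKM in sum. The part of these markers in the results below was not tested, and in bulk RNA fewer cells of a type and less RNA per cell cannot be told apart.

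TGF-β1 treatment changed 9 of the 10 feedback genes, 8 upregulated and 1 downregulated (limma on log2(FPKM + 1), two-sided, adjusted p under 0.05). Of the upregulated genes, Spred1 passed narrowly (limma adjusted p 0.0398) and kept its call in 6 of 18 alternative settings. Across all 11898 genes tested (mean FPKM of at least 1), 48.1% were called, 24.5% upward and 23.6% downward. The median change of the 10 genes was 1.04 on the log2 scale, against -0.02 over all genes tested. The groups did not overlap in any of the 10 genes, which was also the case in 59.4% of all genes tested. All 10 passed the filter on low values, but Spry4 did so only through the treated libraries, because its Control mean was 0.561 FPKM. Without the filter it was still called (limma adjusted p 0.00689). Log2 changes below were computed after adding 1 to each FPKM. This shrinks the change of weakly expressed genes, so ratios of mean FPKM are given as well.

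**Figure D1:**
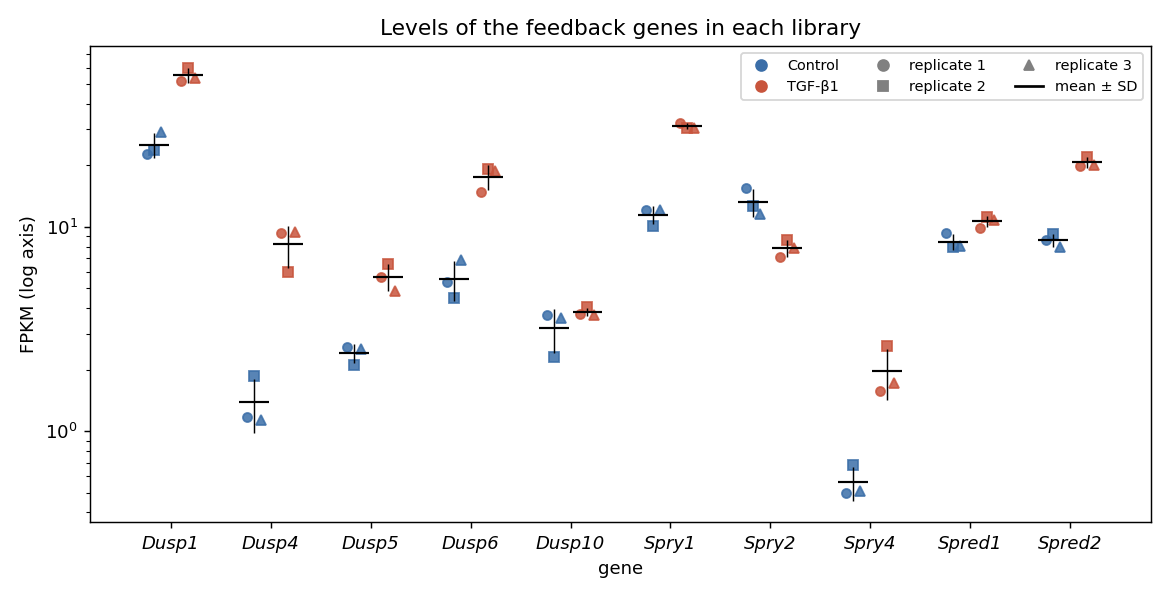
FPKM of each feedback gene in every library on a log axis, with Control in blue, TGF-β1 in red, the marker shape giving the replicate number, and black lines giving the mean ± SD (n = 3). The treated libraries lie above the Control libraries in 9 genes and below them in Spry2, and in Dusp10 the nearest libraries almost touch (3.70 and 3.71 FPKM).

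Dusp4, a nuclear phosphatase that acts on ERK, JNK and p38, had the largest change of the 10 genes. It stood at 1.17, 1.85 and 1.13 FPKM in Control replicates 1 to 3 and at 9.29, 6.03 and 9.38 FPKM in TGF-β1 replicates 1 to 3. These levels rest on 33, 52 and 31 fragments in Control and 259, 155 and 258 with TGF-β1. Replicate 2 was the highest Control and the lowest treated library, and even these were well apart. The mean rose 5.94-fold (log2 change 1.94, SE 0.20, limma adjusted p 5.34e-04). Among all genes tested, Dusp4 lay at the 4.73 percentile of level in Control and at the 40.2 percentile with TGF-β1.

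Dusp6, a cytoplasmic phosphatase selective for ERK, was at 5.36, 4.46 and 6.86 FPKM in Control and at 14.9, 19.3 and 18.7 FPKM with TGF-β1. The lowest treated library was above the highest Control library by more than the spread of either group. Its mean rose 3.17-fold (log2 change 1.51, SE 0.17, limma adjusted p 6.76e-04).

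Dusp1, a nuclear phosphatase of ERK, JNK and p38 encoded by an immediate early gene, was the most abundant of the 10 genes in both groups. Its level was 22.6, 23.7 and 29.2 FPKM in Control and 51.6, 60.2 and 53.5 FPKM after treatment. The 2.19-fold rise of the mean (log2 change 1.10, SE 0.12, limma adjusted p 6.45e-04) was smaller than that of Dusp4 or Dusp6, but in FPKM it was the largest difference of the 10 genes, 29.9. Dusp5, a nuclear phosphatase selective for ERK, rose 2.37-fold, from 2.58, 2.11 and 2.53 FPKM (65, 53 and 62 fragments) to 5.69, 6.56 and 4.88 FPKM (142, 151 and 120 fragments). On the log2 scale Dusp5 changed by 0.97 (SE 0.13, limma adjusted p 0.00145). Dusp1 and Dusp5 therefore changed by a similar factor from levels that lay about an order of magnitude apart.

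Dusp10, which acts on JNK and p38 and not on ERK, was the only one of the 10 genes that was not called. It was at 3.70, 2.30 and 3.58 FPKM in Control and 3.76, 4.04 and 3.71 FPKM with TGF-β1. Only Control replicate 2 stood clearly below the treated libraries, and the change was 0.22 with a 95% interval of -0.16 to 0.60 (limma adjusted p 0.285). Without Control replicate 2, or within replicates 1 and 3 alone, the change was 0.06 or 0.03. The row names a 724 nt transcript at chr1:185837181-185861153, which ends before the active-site codons printed above, and the gene overlaps 1700056E22Rik on the opposite strand. It is not stated whether the value stands for the gene or only for that transcript.

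The summed level of the 5 phosphatases was 34.4 to 43.3 FPKM in Control and 85.2 to 96.1 FPKM with TGF-β1. Dusp1 made up 66.7% ± 2.56 of that sum in Control and 60.8% ± 1.66 after treatment (SD, n = 3), Dusp6 14.6% ± 1.49 and 19.4% ± 1.75, and Dusp4 3.77% ± 1.44 and 9.20% ± 2.54. These shares describe the composition of the sum and were not tested.

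The Sprouty genes moved in both directions. Spry1 rose from 12.1, 10.1 and 12.1 FPKM to 32.3, 30.6 and 30.4 FPKM, with a tight spread in both groups. The mean was 2.72-fold higher (log2 change 1.37, SE 0.09, limma adjusted p 1.15e-04), and this was the lowest adjusted p of the 10 genes. Spry2 fell from 15.6, 12.6 and 11.6 FPKM (325, 263 and 235 fragments) to 7.15, 8.65 and 7.84 FPKM (148, 165 and 160 fragments). It was the only downregulated gene of the 10, 1.68-fold lower in the mean (log2 change -0.68, SE 0.13, limma adjusted p 0.00644).

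The ratio of Spry1 to Spry2 changed accordingly. It was 0.779, 0.80 and 1.05 in Control replicates 1 to 3 and 4.52, 3.54 and 3.89 in the treated libraries. Spry1 and Spry2 were thus at comparable levels in Control, overlapping between libraries, while Spry1 was the dominant Sprouty in every treated library. The exact permutation test on the log2 ratio gave p = 0.1 (two-sided), the smallest value that 3 against 3 allows. This ratio was chosen after the values were seen. As a share of summed Sprouty FPKM, Spry2 went from 52.3% ± 3.98 to 19.2% ± 1.65 and Spry1 from 45.4% ± 4.06 to 76.0% ± 2.82 (SD, n = 3). The sum itself went from 23.4 to 28.2 FPKM in Control to 40.01 to 41.84 FPKM.

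Spry4, the least abundant of the 10 genes in both groups, was at 0.495, 0.681 and 0.508 FPKM in Control and 1.58, 2.61 and 1.73 FPKM with TGF-β1. That corresponds to 24, 33 and 24 fragments against 76, 116 and 82, the fewest of the 4 genes with fragment numbers in the treated libraries. The treated mean was 3.51-fold higher (log2 change 0.91, SE 0.17, limma adjusted p 0.00542). The log2 change depended on the pseudocount, 1.63 with 0.1 in place of 1, because the level was low.

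Spred1 and Spred2 bind neurofibromin, the RAS-inactivating protein lost in neurofibromatosis, and their levels overlapped in Control. Spred1 lies at chr2:116947110-117008015 and Spred2 at chr11:19824378-19924029 (mm9, plus strand). Spred2 rose from 8.64, 9.23 and 7.98 FPKM to 19.8, 22.0 and 20.2 FPKM, a 2.40-fold increase of the mean (log2 change 1.17, SE 0.09, limma adjusted p 1.59e-04). Spred1 rose far less, from 9.31, 7.93 and 8.06 FPKM to 9.87, 11.1 and 10.9 FPKM. The highest Control and the lowest treated library of Spred1 were close to each other, and the 1.26-fold difference (log2 change 0.30, SE 0.10) passed the threshold narrowly (limma adjusted p 0.0398). That call was lost in 12 of 18 alternative settings. It was lost without Control replicate 2 or 3 (limma adjusted p 0.114 and 0.0921) and without TGF-β1 replicate 1, 2 or 3 (0.0610, 0.102 and 0.113). The ratio of Spred2 to Spred1 was 0.927, 1.16 and 0.990 in the Control libraries, against 2.01, 1.98 and 1.86 after treatment (exact permutation p = 0.1, two-sided, for a ratio also chosen after the values were seen).

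**Figure D2:**
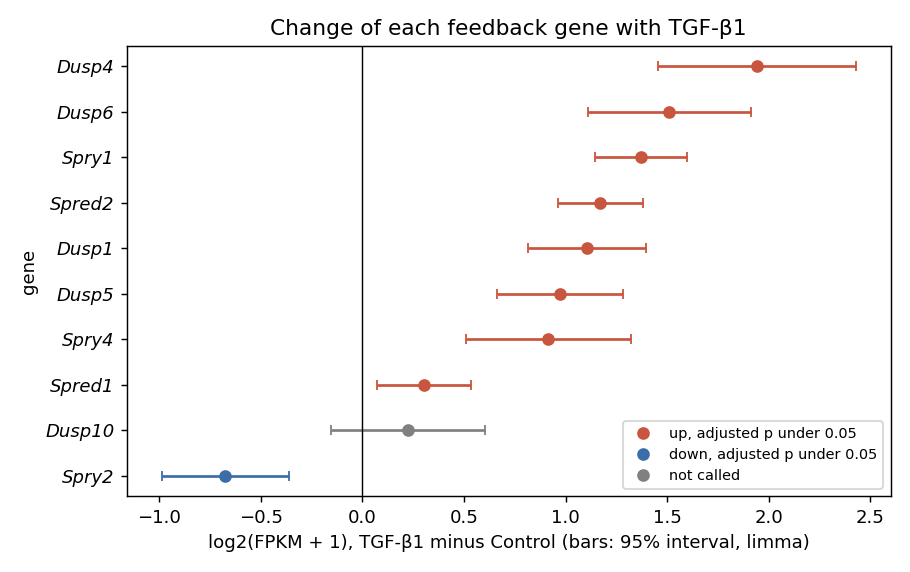
Change of each feedback gene on the log2(FPKM + 1) scale, TGF-β1 minus Control, with 95% intervals from limma (n = 3 per group), ordered by size. Red points were called up, the blue point was called down, and the gray point was not called. The interval of Dusp10 spans 0 and that of Spred1 begins at 0.07.

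The replicate 2 libraries of both groups deviated from their group means in a weakly similar way. After subtraction of the group means, Control 2 and TGF-β1 2 had a correlation of 0.232 across genes, as a description, while no other pairing across the groups exceeded 0.117. With these libraries as a batch term, or within replicates 1 and 3 alone, the same 7 genes other than Spred1 were called up and Spry2 was called down. Within replicates 1 and 3 the log2 changes were 2.26 for Dusp4, 0.82 for Spry4 and -0.77 for Spry2.

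**Figure D3:**
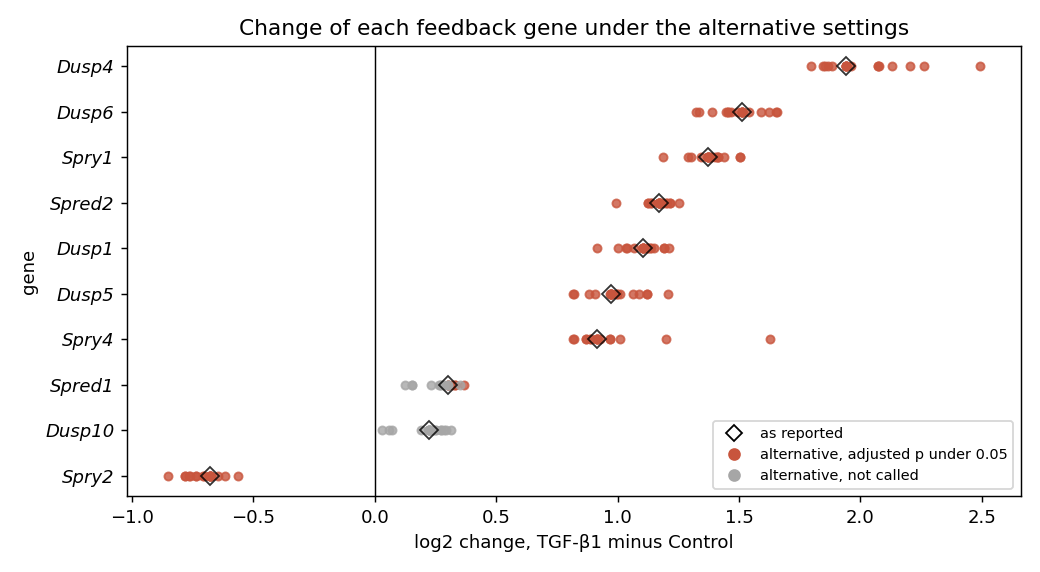
Change of each feedback gene (log2, TGF-β1 minus Control) as reported (diamonds) and under each alternative setting (circles, red where the adjusted p was under 0.05 and gray where it was not). Points of Spred1 turn gray in 12 of its 18 alternatives, points of Dusp10 are gray throughout, and no gene crosses 0.

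The order of levels also shifted. In Control the 10 genes ranked Dusp1, Spry2, Spry1, Spred2, Spred1, Dusp6, Dusp10, Dusp5, Dusp4 and Spry4 by mean FPKM. Libraries of neighboring genes overlapped for Spry2 and Spry1, for Spred2 and Spred1, and for Dusp10 and Dusp5, so the order within these pairs is not resolved. With TGF-β1 the order was Dusp1, Spry1, Spred2, Dusp6, Spred1, Dusp4, Spry2, Dusp5, Dusp10 and Spry4, and among neighbors libraries overlapped only for Dusp4 and Spry2. Spry2 moved from the second place to the seventh and Dusp4 from the ninth to the sixth.

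Close relatives of the 10 genes were counted as lists. Of 5 other MAP kinase phosphatases, 3 passed the filter and 1 was called (33.3%, against 48.1% of all genes tested). Dusp8, a JNK and p38 phosphatase, rose from 5.28 ± 1.07 to 9.15 ± 1.02 FPKM (SD, n = 3, limma adjusted p 0.00954). Dusp7, a cytoplasmic ERK phosphatase like Dusp6, was at 9.43 ± 1.56 and 7.57 ± 0.705 FPKM (0.135), and Dusp16 at 5.18 ± 0.268 and 4.92 ± 0.325 FPKM (0.588). For Dusp7 the log2 change was -0.28 (95% interval -0.60 to 0.05), and for Dusp16 it was -0.06 (-0.28 to 0.15). Dusp2 and Dusp9 were under the filter, Dusp2 with means of 0.491 and 1.12 FPKM and Dusp9 with means of 0.0119 and 0.190 FPKM, and neither was called without it (limma adjusted p 0.0845 and 0.113).

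The list of 8 other feedback inhibitors held 6 genes that passed the filter, of which 2 rose and none fell. The share called was 33.3%, against 48.1% of all genes tested. Lrig1, a membrane protein that promotes the breakdown of receptor tyrosine kinases, rose from 4.81 ± 0.568 to 14.5 ± 1.07 FPKM (limma adjusted p 1.55e-04). Spred3 rose from 5.10 ± 0.989 to 9.62 ± 0.443 FPKM (0.00378). Il17rd, also called Sef, was at 2.33 ± 0.167 and 2.85 ± 0.354 FPKM (0.186). Spry3 was under the filter, at 0.425 ± 0.0669 and 0.363 ± 0.0447 FPKM (0.506 without the filter). Cbl, a ubiquitin ligase for receptor tyrosine kinases, was under the filter too, at 0.567 ± 0.0717 and 1.12 ± 0.164 FPKM, and was called up without it (0.0181), which makes 3 upregulated genes.

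The kinases on which these inhibitors act changed in both directions. Of 17 tested genes of the ERK cascade, 7 rose and 5 fell, and the median log2 change was 0.20. In this list 70.6% were called, against 48.1% of all genes tested. Map2k1, the kinase MEK1 that activates ERK, rose from 23.2 ± 3.88 to 61.3 ± 2.90 FPKM (limma adjusted p 3.32e-04). Araf, a RAF kinase, fell from 108 ± 15.8 to 52.4 ± 6.48 FPKM, and the adaptor Gab1 from 14.5 ± 0.897 to 9.01 ± 0.387 FPKM (0.00156 and 0.00138). Ksr1 of this list was under the filter, at 0.957 ± 0.122 FPKM in Control and 0.498 ± 0.112 FPKM with TGF-β1. It was called down without the filter (limma adjusted p 0.0263), where 7 genes of the list rose and 6 fell. Mapk3 (ERK1), named after its values were seen, fell from 132 ± 6.16 to 91.2 ± 6.26 FPKM (limma adjusted p 0.00295). With GC content and length accounted for, the log2 change of Mapk3 went from -0.53 to -0.38, which was not called (0.0940) without the replicate number as a block and was called (0.0335) with it.

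Of 13 tested genes of the p38 and JNK cascades, 5 rose and 5 fell, with a median log2 change of -0.05. Here 76.9% were called, against 48.1% of all genes tested. Map3k5 (ASK1), a stress-activated kinase, fell from 2.07 ± 0.145 to 0.125 ± 0.0481 FPKM, and Map2k6, which activates p38, from 4.28 ± 0.197 to 1.16 ± 0.339 FPKM (limma adjusted p 2.45e-04 and 7.21e-04). Map3k5 passed the filter on low values only through the Control libraries, fell under it when any 1 of them was left out, and was still called without the filter (1.60e-04). Mapk8 (JNK1) rose from 11.8 ± 2.58 to 18.7 ± 0.896 FPKM and Mapk9 (JNK2) from 15.4 ± 2.25 to 23.1 ± 2.08 FPKM (0.0130 and 0.0111), and the call of Mapk8 was lost within replicates 1 and 3 (0.0729) and on scaling to the protein-coding sum (0.0527). Mapk10 (JNK3) went the other way, from 1.44 ± 0.200 FPKM in Control to 0.400 ± 0.114 FPKM with TGF-β1. It was under the filter and was called down without it (limma adjusted p 0.00300). Without the filter, 5 genes of the list rose and 5 fell. The count of upregulated genes was 3 without Control replicate 1 or 2 or without any 1 TGF-β1 replicate, and 1 within replicates 1 and 3. The count of downregulated genes was 3 without Control replicate 1 or 2.

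Genes that respond to ERK activity in transcription were mostly higher, as 7 of 12 tested rose and 2 fell, with a median log2 change of 1.11. The share called was 75%, against 48.1% of all genes tested, of which 24.5% were called upward. Myc rose from 7.49 ± 0.628 to 35.6 ± 3.47 FPKM and Etv4, an ETS transcription factor, from 13.6 ± 1.5 to 46.8 ± 1.34 FPKM (limma adjusted p 3.53e-05 and 5.77e-05). Immediate early genes of the list moved both ways. Among those that rose were Egr2, from 1.07 ± 0.175 to 2.86 ± 0.0965 FPKM, and Ier3, from 26.0 ± 2.30 to 69.0 ± 16.7 FPKM (0.00125 and 0.00198), both named after their values were seen. The 2 genes that fell were Egr1, from 46.5 ± 9.13 to 17.8 ± 2.22 FPKM, and Fos, from 5.27 ± 1.12 to 1.54 ± 0.117 FPKM (0.00102 and 9.84e-04).

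**Figure D4:**
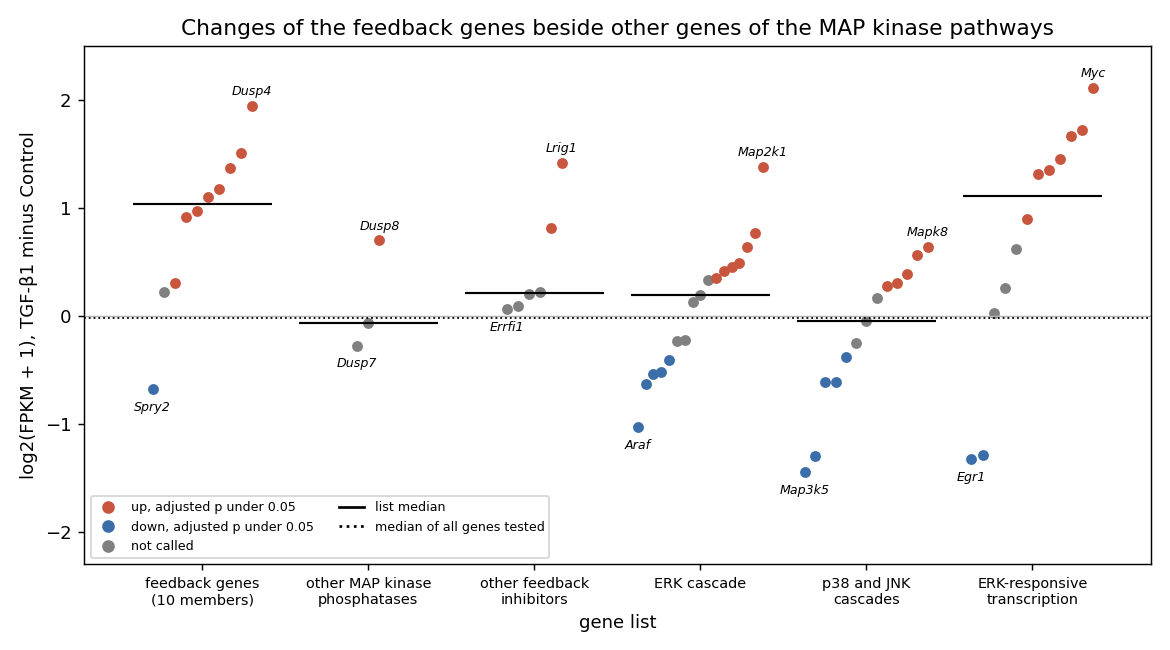
Log2 change (TGF-β1 minus Control, log2(FPKM + 1)) of the 10 feedback genes and of the tested genes of 5 other lists of MAP kinase pathway genes, with called genes in red (up) or blue (down) and others in gray. Solid lines give the list medians, 1.04 for the feedback genes and 1.11 for ERK-responsive transcription. The medians were -0.06 for the other MAP kinase phosphatases and 0.21 for the other feedback inhibitors. They were 0.20 for the ERK cascade and -0.05 for the p38 and JNK cascades. The dotted line gives the median of all genes tested, -0.02.

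Promoters were taken from 250 bases before to 50 bases after the annotated start. They were searched on both strands because 8 of the genes were called up, Spred1 only narrowly. RefSeq sequences (GRCm38.p6) were matched for 8 of the 10 genes, all but Dusp4 and Spry4, and 32851 promoters served as the background. The cAMP response element core TGACGTC was found in Dusp1 and Spred2 and in 3.21% of all promoters, and the SRF CArG box in Dusp5 and in 1.63%. The CAGACA element bound by SMAD proteins was found in Dusp1 alone of the 8, and in 21% of all promoters. The AP-1 site TGANTCA, the SMAD palindrome core GTCTAGA and the ETS site CCGGAAG were in none of the 8 windows and in 7.81%, 2.19% and 8.86% of all promoters. The CAGACA match in Dusp1 lies 122 bases upstream and is not printed. The windows with the cAMP element and the CArG box, all in genes that rose, are printed with the matched letters in capitals. They lie at chr17:26508645-26508674 and chr17:26508597-26508626 (minus strand), chr11:19924378-19924407 (plus) and chr19:53529053-53529082 (plus).
Dusp1, 191 bases upstream: tcctaggccgaTGACGTCtttgcttttggc
Dusp1, 143 bases upstream: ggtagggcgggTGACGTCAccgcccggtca
Spred2, 53 bases upstream: gccgctgggaaGACGTCAtcgcttccgccc
Dusp5, 82 bases upstream: ggggaaatacCCATATTTGGCCTTATATGG
The second Dusp1 match is palindromic and holds the core on both strands, and in Dusp5 a pair of CArG boxes stand directly next to each other. A match describes the letters in a window and does not show that a factor is bound there.

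The genes whose pattern over the 6 libraries was closest to that of Dusp4 and of Spry2 were identified by the root mean square difference of log2(FPKM + 1) after the mean of each gene was subtracted. Among the nearest to Dusp4 were Sox8 and Hist1h1c, each with a difference of 0.14, and nearest to Spry2 were Mcm5, Slc7a4 and Rnf130, with differences of 0.06, 0.06 and 0.07. Of the feedback genes, Spry1 was the closest to Dusp4, with a difference of 0.40, which put it in place 332 among all genes. No feedback gene lay within 0.48 of Spry2.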

How the data were processed

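RNA-Seq of 3 Control and 3 TGF-β1 libraries was analyzed. After quality filtering of reads, the authors aligned to mm9 using TopHat, and Cufflinks gave the FPKM (the submitters' processing notes name TopHat2 2.0.11), and the deposited values are FPKM with no further scaling stated. Whether strand was used is not stated. Groups and replicate numbers came from the labels. Annotation was GENCODE M1 (mm9), in which 19699 rows matched by transcript identifier.

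The test was limma 3.58.1 (lmFit, eBayes with trend; R 4.3.3) on log2(FPKM + 1), for rows whose mean FPKM reached 1, with Benjamini-Hochberg adjustment over 11898 rows and a threshold of 0.05. The study used a count model (DESeq), so the test differs from the authors'. The script was tested on simulated data. Depth was 10115000 to 11073000 fragments per library, and an FPKM of 1 in a short or rare transcript rests on few fragments. The feedback genes, gene lists and motifs were chosen with earlier results of these data known. Named were the 10 feedback genes, the other MAP kinase phosphatases, Spry3, Spred3 and Il17rd, Ctgf as a check of the treatment, the 2 largest called changes in each direction of every other list, and the 3 genes nearest in pattern to Dusp4 and to Spry2. Mapk3, Mapk10, Ksr1, Cbl, Egr2 and Ier3 fall outside this rule, as do the named cell type markers. Some genes that the rule names are not reported here. Nothing was left out of the 6 libraries. Python 3.11.15, pandas 2.3.3, numpy 2.4.6, scipy 1.17.1 and matplotlib 3.10.9 were used.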

Additional observations from a re-analysis of the deposited data

How the results depend on the processing

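Under 18 alternatives, the changes of Dusp1, Dusp4, Dusp5, Dusp6, Spry1, Spry2, Spry4 and Spred2 kept their direction and call, and Dusp10 was called in none. Spry4 gave no value with a mean FPKM of at least 3 or without TGF-β1 replicate 2, where it fell under the filter. The call of Spred1 was lost without the filter, with the replicate block and with replicate 2 as a batch term (log2 change 0.30 in each, adjusted p 0.0657, 0.0882 and 0.0547), on scaling to the sum of protein-coding rows (0.13), within replicates 1 and 3 (0.23), and after regressing out GC content and length, with or without the replicate block (0.15 in both). With 1 library left out the change of Spred1 was 0.26 to 0.37, and 7 to 9 feedback genes were called, 6 to 8 of them up. The cause was not tested.

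Scaling to the protein-coding sum shifted the median of all genes to -0.19 and called 2014 genes up and 3951 down, against 2911 and 2810 as reported. In that scaling 1 other phosphatase fell, and 4 ERK cascade genes and 1 p38 or JNK cascade gene rose. In the p38 and JNK list, 3 genes fell at a mean FPKM of at least 3, 1 rose within replicates 1 and 3, and 2 rose with the replicate block and GC content and length regressed out. With 1 library left out, 3 to 4 of that list rose and 3 to 6 fell. All genes called ranged from 4340 to 6026, and from 4451 to 5422 with 1 library left out.

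Replicate numbers are shared between groups. The correlations of deviations were 0.0921, 0.232 and 0.0853 for numbers 1, 2 and 3. For unlike numbers they ranged from -0.194 to 0.117, and only Control 1 with TGF-β1 3 was positive. The main test left the numbers out, and whether they pair the libraries was not settled. With the replicate number as a block, 5391 genes and 8 feedback genes were called. At this depth the low fragment numbers of Spry4 and Dusp4 limit the precision of their fold changes.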
